A study of Mus musculus with 6 samples.

Results

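The genes described here encode the proteins of the cytosolic ribosome in the mouse soleus, a calf muscle of slow, weight-bearing fibres. They were chosen by symbol: Rpl or Rps followed by the protein's number and any paralog letters, together with the stalk genes Rplp0, Rplp1 and Rplp2, without symbols marked -ps (pseudogenes) and without the Rps6k kinases. Of 19938 genes measured, 60 met this rule, 38 of the large 60S subunit and 22 of the small 40S subunit. Expression was measured on 6 Affymetrix 1.0 ST arrays in 3 groups of 2: hindlimb suspension with electroacupuncture, hindlimb suspension alone, and control. Suspension lifts the hind limbs so that their muscles bear no load, and electroacupuncture drives an electric current between inserted needles. All arrays were labelled as soleus of male C57BL/6 mice of 8 weeks. The labels name no length of suspension, no stimulation points and no sham treatment. Whether duplicate arrays stem from different animals is not stated, so the p-values measure the spread between arrays, which may be technical.

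Ribosomal proteins coat the ribosomal RNA of both subunits, steady its folding and line the paths of the messenger RNA and the growing peptide. They are made in matched amounts, assembled in the nucleolus and, where a protein is left without a partner, degraded. Most of their mRNAs begin with a pyrimidine run, the 5′ terminal oligopyrimidine (TOP) tract, through which mTORC1 signalling sets how much of each mRNA is translated. In muscle, ribosome number limits protein synthesis and is among the quantities that follow load.

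The bases around the annotated start, where a TOP tract would lie, are given for the 4 genes with the smallest p in suspension against control (Rpl24, Rpl13, Rps28 and Rpl5). They are also given for Rps6, the gene with the highest mean signal, and for the muscle paralog Rpl3l. The last 2 were chosen after their values were seen. Sequences are from RefSeq on GRCm38.p6 and hold 45 bases before the first transcribed base and 25 from it onward. Capitals mark runs of a C followed by at least 4 C or T.
Rpl24, chr16:55966230-55966299, plus strand: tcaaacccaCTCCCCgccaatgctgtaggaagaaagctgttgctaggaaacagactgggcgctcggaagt
Rpl13, chr8:123102305-123102374, plus strand: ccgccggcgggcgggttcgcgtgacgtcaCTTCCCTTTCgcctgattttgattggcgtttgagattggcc
Rps28, chr17:33824538-33824607, minus strand: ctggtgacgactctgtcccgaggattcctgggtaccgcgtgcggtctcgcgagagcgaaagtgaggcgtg
Rpl5, chr5:107900483-107900552, plus strand: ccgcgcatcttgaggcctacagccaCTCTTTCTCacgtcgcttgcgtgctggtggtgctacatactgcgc
Rps6, chr4:86857343-86857412, minus strand: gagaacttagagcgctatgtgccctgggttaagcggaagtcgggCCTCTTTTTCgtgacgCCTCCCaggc
Rpl3l, first of 2 listed starts, chr17:24727781-24727850, plus strand: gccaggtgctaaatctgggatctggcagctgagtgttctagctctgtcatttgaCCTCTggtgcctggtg

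In Rps6 the run of 10 pyrimidines began 1 base before the annotated start, and in Rpl13 and Rpl5 a run of 10 and of 9 lay upstream of it. The run of 6 in Rpl24 lay further upstream, that of 5 in Rpl3l lay downstream of the start, and Rps28 had none. Of the sequences shown, only that of Rps6 thus had a run across the annotated start. The starts in the table are annotated ones, and a transcript may begin elsewhere. Of the 60 genes, 48 had an entry among the 27025 genes of the table. A C followed by at least 7 C or T, on the transcribed strand from 50 bases before to 30 after the start, was found in 28 of the 48 (58.3%) and in 27.2% of all genes. A C at the first transcribed base followed by at least 4 C or T, which can overlap such a run, was found in 10 (20.8%) and in 3.01% of all genes. The motif CCGGAAG, the core bound by ETS factors, lay on either strand of the 300-base window in 18 (37.5%), against 9.93% of all genes. TATAAA, searched on the transcribed strand from 40 to 15 bases before the start, was found in 0 of the 48, against 2.41% of all genes. Genes with a run of at least 8 had a median difference between suspension and control of 0.24 log2, and those without it 0.22. For a run from the first transcribed base the medians were 0.28 with it and 0.20 without. For CCGGAAG they were 0.17 with it and 0.24 without, and none of these splits was tested.

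The values are log2 signals, so a difference of 1 is a doubling. Member means over the 6 arrays ran from 1.88 for Rpl39l to 12.13 for Rps6, with a median of 9.04, but probes differ in brightness and levels of different genes are not compared. All but Rpl39l lay above 3.50, the 95th percentile of 1027 olfactory receptor genes, used here as a background level. Rpl39l, which serves germ cells in the mouse testis, had 1.83 and 2.05 with electroacupuncture, 1.91 and 1.79 in suspension and 1.89 and 1.78 in control, so its values say nothing of a change. Symbols of another 18 ribosomal protein genes, among them Rpl3, Rpl11, Rpl22l1, Rpl39 and Rps27, occurred only in transcript clusters shared with other symbols and were not analysed here. Rps4l is a transcribed pseudogene in RefSeq.

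One array stood apart for these genes. Control array 1 had the lowest signal of the 6 arrays for 42 of the 60, which was 70%, against 22.8% of all genes. On it the median member lay 0.14 log2 below its own control mean, and on control array 2 it lay 0.14 above. The 4 suspended arrays had medians of 0.17 and 0.26 with electroacupuncture and 0.26 and 0.13 without, so that control array 2 lay level with them and control array 1 did not. Between the control arrays 49 members were lower in array 1, with a median gap of -0.28 and gaps from -1.05 to 0.72. Among all 508 genes with a mean signal above 9, 74.2% were lower in control array 1, with a median gap of -0.18, and among the 32 members above 9 the share was 84.4% and the median gap -0.31. The SD of the gap between duplicates over the 60 genes was 0.10 with electroacupuncture, 0.15 in suspension and 0.35 in control, beside 0.25, 0.29 and 0.36 over all genes. Array 1 of the suspension group had the highest signal for 26 of the 60 genes, a count for which the share over all genes was not taken.

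**Figure D1:**
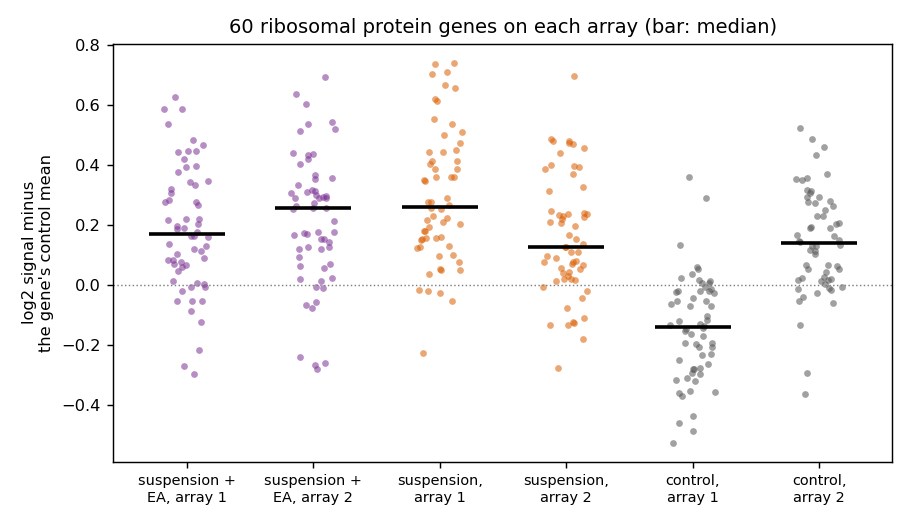
Each point is 1 of 60 ribosomal protein genes on 1 array, as log2 signal minus that gene's mean over the control arrays, and each bar is the array's median. The medians are 0.17, 0.26, 0.26 and 0.13 on the 4 suspended arrays (those with electroacupuncture first), -0.14 on control array 1 and 0.14 on control array 2.

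Markers of other cell types also moved between arrays, and their part in the results was not tested. The mean of 13 adipocyte markers, 12 of them above background, lay at -0.10 and -0.20 from its control mean with electroacupuncture, at -0.39 and -0.48 in suspension and at -0.51 and 0.51 in control. Their summed signal was 11398 and 11056, 10625 and 11435, and 9800.07 and 12785 in the same order. Of these only Ucp1, the marker of brown fat, was below background. The mean of 14 macrophage markers, all above background, lay at 0.82 and 0.41 with electroacupuncture, at 0.55 and -0.06 in suspension and at -0.12 and 0.12 in control, with summed signals of 1484 and 1008, 1157 and 656, and 585 and 770. All 14 muscle fibre markers were above background. The mean of 15 fibroblast and tendon markers lay at -0.60 and -0.61 with electroacupuncture and at -0.43 and -1.27 in suspension. In control it lay at -0.02 and 0.02. The muscle fibre markers lay at -0.43 and -0.25, at -0.38 and -0.34, and at -0.14 and 0.14 in the same order. At a limma adjusted p under 0.05, Tnmd, Chad, Kera and the muscle fibre marker Myh2 were lower in suspension than in control. With electroacupuncture against control, Tnmd, Scx, Kera, Myh2 and Myl3 were lower. Of all genes, 0.512% and 0.587% were lower in these comparisons. The mean of 10 endothelial markers, all above background, lay at -0.28 and -0.35 with electroacupuncture, at 0.04 and -0.10 in suspension and at -0.11 and 0.11 in control, with summed signals of 1533 and 1497, 1949 and 1736, and 1794 and 2079. Against control Kdr fell with electroacupuncture (-1.28 ± 0.17, limma adjusted p = 0.0135). Both measured red cell markers were above background, with a mean of -0.08 and -0.42, 0.32 and -0.11, and -0.34 and 0.34 in the same order. Of 9 T and B cell markers 3 were above background, with Cd3d, Cd3g, Cd4, Cd8a, Cd79a and Ms4a1 below it. In whole muscle, fewer cells of a type and less RNA per cell cannot be told apart.

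The comparison of suspension with control addressed what unloading does to the soleus. No ribosomal protein gene passed adjusted p under 0.05 in either direction, while 1.05% of all genes did in limma's test over all 6 arrays (0.537% higher and 0.512% lower). Differences were mostly above 0, in 54 of 60 genes (90%), against 51.1% of all genes. Their median was 0.21 log2, or 1.16-fold, beside 0.01 for all genes and 0.03 for the 1168 genes with a mean signal above 8. The range was -0.20 to 0.68. The large subunit had a median of 0.21 over 38 genes and the small subunit 0.21 over 22. Both suspension arrays lay above both control arrays for 22 of the 60 genes (36.7%), against a background of 21.3% of all genes, and below both for 3 (5%), against 18.5%. At an unadjusted p under 0.05, 12 genes (20%) were higher and 0 lower, beside 6.63% and 6.09% of all genes (12.7% in either direction).

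These figures moved with the arrays used. Without control array 1 the median was 0.069, 36 of 60 differences were above 0 and no gene passed, with a smallest adjusted p of 0.154 in limma. Without control array 2 instead, the median was 0.36 and 8 genes passed, 13.3% against 1.51% of all genes in that fit (Rpl10a, Rpl24, Rpl26, Rpl36, Rpl37a, Rps15a, Rps25 and Rps29), all higher in suspension. Without suspension array 1 the median was 0.13, with 49 above 0. Over all genes the medians of these fits were 0.031, -0.009 and -0.004 in the same order, and the share above 0 was not taken. For Rps25, a small-subunit protein, the difference was 0.46 with both control arrays, 0.95 without array 2 and -0.02 without array 1. For Rpl26, a large-subunit protein at the exit tunnel, it was 0.39 with both, 0.82 without array 2 and -0.05 without array 1.

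**Figure D2:**
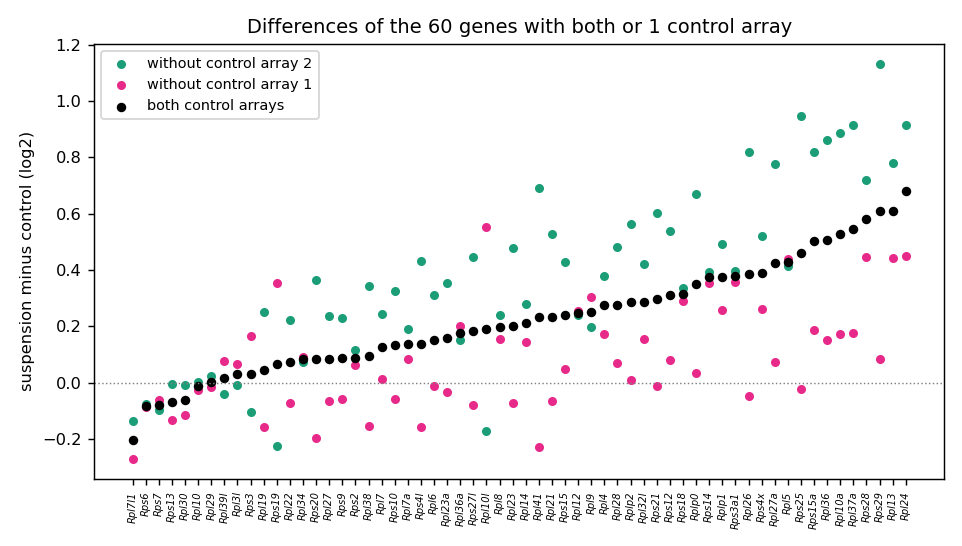
Differences between suspension and control (log2) for the 60 genes, ranked, with both control arrays (black), without control array 1 (pink) and without control array 2 (green). The medians are 0.21, 0.069 and 0.36, and the highest green point is Rps29 at 1.13.

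The 4 genes with the smallest p were above both control arrays on all suspended arrays. Rpl24, a large-subunit protein at the interface of the subunits, had 8.77 and 8.84 with electroacupuncture, 8.99 and 9.02 in suspension and 8.09 and 8.56 in control. Suspension exceeded control by 0.68 ± 0.16 log2 (SE), with an adjusted p of 0.0998 in limma, and by 0.45 without control array 1. Rpl13, another large-subunit protein, had 8.22 and 8.23 with electroacupuncture, 8.42 and 8.16 in suspension and 7.51 and 7.85 in control. Its difference was 0.61 ± 0.16 (limma adjusted p = 0.121), and 0.44 without control array 1. In both genes control array 1 lay well below control array 2, and both lay below every suspended array.

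Rps28, a small-subunit protein near the exit of the mRNA channel, had 9.0 and 9.13 with electroacupuncture, 9.40 and 9.15 in suspension and 8.56 and 8.83 in control. Its difference was 0.58 ± 0.15 (limma adjusted p = 0.124). Rpl5 travels with Rpl11 and a small ribosomal RNA into the large subunit and, when free, binds the p53 inhibitor Mdm2. It had 9.44 and 9.46 with electroacupuncture, 9.58 and 9.61 in suspension and 9.18 and 9.15 in control. Here the duplicates lay close in every group and the groups did not overlap, yet the difference of 0.43 ± 0.12 did not pass (limma adjusted p = 0.154). It was 0.44 without control array 1 and 0.42 without control array 2, so neither control array decided it.

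**Figure D3:**
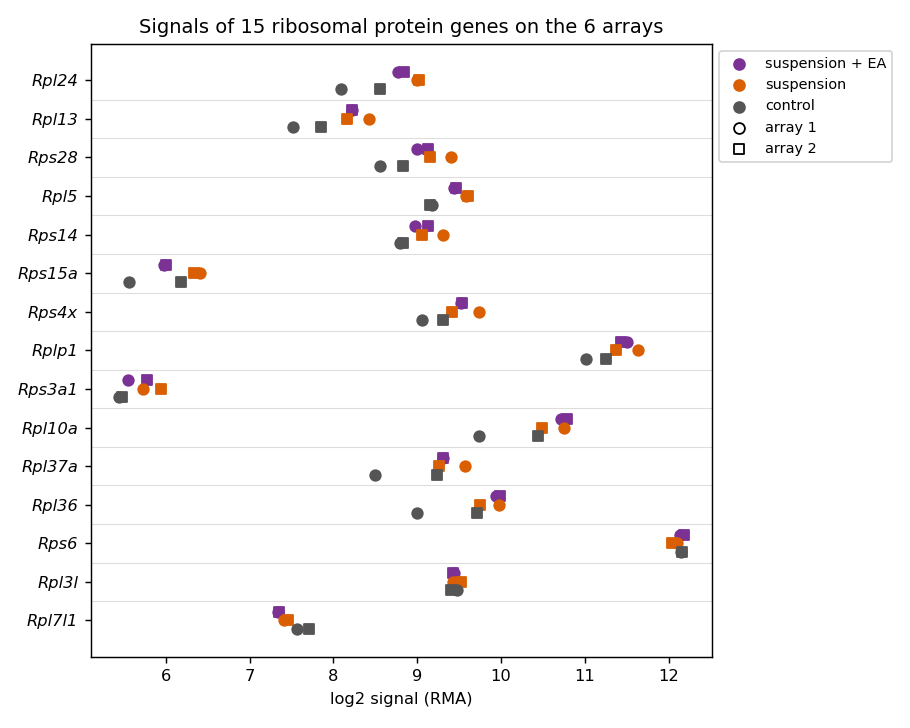
Log2 signals of 15 ribosomal protein genes on the 6 arrays, coloured by group (suspension with electroacupuncture, suspension, control), with circles for array 1 and squares for array 2. The upper 12 are those with the smallest p in suspension against control, with differences of 0.37 to 0.68; Rps6, Rpl3l and Rpl7l1 at the bottom had -0.08, 0.03 and -0.20.

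The next 8 genes by p had differences from 0.37 to 0.55 and adjusted p-values from 0.292 to 0.368 in limma. Among them Rps14, of the small subunit's platform, had 9.31 and 9.06 in suspension, against 8.79 and 8.83 in control, and a difference of 0.37 ± 0.14. Rps3a1, also of the small subunit, had 5.73 and 5.95 in suspension, against 5.44 and 5.48 in control (0.38 ± 0.15). In both the control arrays lay close together, and without control array 1 the differences were 0.36 for Rps14 and 0.36 for Rps3a1. In 4 others the control arrays lay apart. Rpl10a had 10.75 and 10.49 in suspension, against 9.73 and 10.45 in control (0.53 ± 0.22). Rpl37a had 9.57 and 9.26, against 8.50 and 9.24 (0.55 ± 0.22), and Rpl36 9.98 and 9.75, against 9.0 and 9.71 (0.51 ± 0.21). Rps15a had 6.41 and 6.34, against 5.56 and 6.19 (0.50 ± 0.20). For these 4, control array 2 lay within 0.19 log2 of the suspension mean, and array 1 lay at least 0.82 below it.

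Rps29, a small zinc-binding protein of the small subunit, varied most over the 6 arrays, by 1.26 log2. It had 8.79 and 8.95 with electroacupuncture, 9.08 and 8.83 in suspension and 7.82 and 8.87 in control. Control array 1 alone stood apart, and the difference of 0.61 ± 0.28 did not pass (limma adjusted p = 0.425). Rpl41, the shortest ribosomal protein, had 10.67 and 10.33 in suspension, against 9.81 and 10.73 in control, so that the control arrays were the lowest and the highest of the 6.

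The stalk of the large subunit recruits the GTPases that drive translation. Its anchor Rplp0 had 11.63 and 11.55 in suspension, against 10.92 and 11.56 in control, a difference of 0.35 ± 0.20. Rplp1, an acidic stalk protein, had 11.64 and 11.37, against 11.01 and 11.25 (0.38 ± 0.15, limma adjusted p = 0.342). For its partner Rplp2 the values were 5.08 and 4.95, against 4.45 and 5.0 (0.29 ± 0.20), and for Rpl12, at the base of the stalk, 4.94 and 4.72, against 4.59 and 4.57 (0.25 ± 0.15). None of the 4 passed, and without control array 1 the differences were 0.03 for Rplp0 and 0.01 for Rplp2, and 0.26 for both Rplp1 and Rpl12.

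A few members lay level across all arrays. Rps6, the substrate of the S6 kinases below mTORC1, had 12.14 and 12.18 with electroacupuncture, 12.10 and 12.05 in suspension and 12.15 and 12.16 in control. The suspension arrays lay just below both control arrays, and the difference of -0.08 ± 0.13 did not pass (limma adjusted p = 0.856). Rps7, which also binds Mdm2, had 9.40 and 9.30 in suspension, against 9.45 and 9.41 in control. Rpl3l, the paralog that stands in for Rpl3 in striated muscle, had 9.43 and 9.43 with electroacupuncture, 9.42 and 9.52 in suspension and 9.48 and 9.40 in control. Its difference of 0.03 ± 0.12 was well inside its error. Rpl3 itself was among the genes with shared clusters, so the balance of the paralogs was not measured.

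Near the exit of the peptide tunnel, Rpl23a had 9.03 and 8.80 in suspension, against 8.56 and 8.95 in control (0.16 ± 0.16), and -0.03 without control array 1. Among small-subunit proteins at the decoding site and mRNA entry, Rps2 had 11.05 and 11.07 with electroacupuncture, 11.17 and 11.10 in suspension and 11.02 and 11.07 in control, all within a narrow band. Rps3 had 8.32 and 8.30, 8.56 and 8.23, and 8.50 and 8.23 in the same order, with groups that overlapped. Rps9 had a difference between suspension and control of 0.09 ± 0.14 and Rps15 of 0.24 ± 0.16. Other transcript clusters of these genes lay higher, at 0.36 for Rps9 and at 0.31 and 0.44 for Rps15. Rpl23, which like Rpl5 binds Mdm2, had 9.39 and 9.37 in suspension, against 8.90 and 9.45 in control (0.20 ± 0.18), and -0.07 without control array 1.

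The remaining large-subunit genes had differences between suspension and control from -0.06 (Rpl30) to 0.43 (Rpl27a). Besides these 2 they were Rpl6, Rpl7a, Rpl8, Rpl9, Rpl14, Rpl19, Rpl21, Rpl22, Rpl27, Rpl28, Rpl29, Rpl32l, Rpl34, Rpl36a, Rpl38 and Rpl4. Rpl9 had 10.42 and 10.34 in suspension, against 10.18 and 10.08 in control (0.25 ± 0.12, limma adjusted p = 0.464). Rpl38, which in the mouse embryo is needed for translation of Hox mRNAs, had 10.55 and 10.42, against 10.14 and 10.64 (0.09 ± 0.17). For Rpl9 the groups did not overlap, and for Rpl38 the control arrays lay on both sides of suspension. The remaining small-subunit genes were Rps10, Rps13, Rps18, Rps20 and Rps21, between -0.07 (Rps13) and 0.31 (Rps18). Rps18 had 10.35 and 10.03 in suspension, against 9.85 and 9.90 in control (0.31 ± 0.14, limma adjusted p = 0.424), again without overlap.

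Pairs of paralogs could be set side by side as differences. Rpl7l1, whose yeast relative works in assembly of the large subunit, had 7.34 and 7.36 with electroacupuncture, 7.41 and 7.46 in suspension and 7.57 and 7.70 in control. It was the lowest difference of the 60 at -0.20 ± 0.13 (limma adjusted p = 0.572), while Rpl7 had 0.13 ± 0.13. Rpl10l, the testis copy of Rpl10, had 4.53 and 4.18 in suspension, against 4.53 and 3.80 in control (0.19 ± 0.24), and Rpl10, which joins the large subunit late, -0.01 ± 0.13. Rps4x had 0.39 ± 0.15 and the pseudogene Rps4l 0.14 ± 0.20. Another paralog, Rps27l, had 9.29 and 9.11 in suspension, against 8.75 and 9.28 in control (0.19 ± 0.19). Rpl32l was not listed as a paralog here and is given with the other large-subunit genes, and Rpl32 had only shared clusters.

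Several clusters of the array carry the same ribosomal protein symbol, since these genes have many processed copies in the genome and probes of near-identical copies can share signal. In all, 212 clusters with 1 symbol belonged to the 60 genes, and 38 genes had more than 1. Clusters of a gene tended to repeat its difference between suspension and control. The 7 of Rps28 ran from 0.57 to 0.62 and the 9 of Rpl13 from 0.41 to 0.62. For Rps12, with 14, they ran from 0.21 to 0.50, while the 8 of Rps6 ran from -0.14 to -0.04. Some clusters held identical values, such as the 3 of Rpl41 (0.23 each) and several of Rps12 at 0.31, so their agreement was fixed. Clusters of a gene saw the same RNA on the same arrays and are not independent. Their spread was widest for Rpl27a, with 9 clusters from 0.27 to 0.69.

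**Figure D4:**
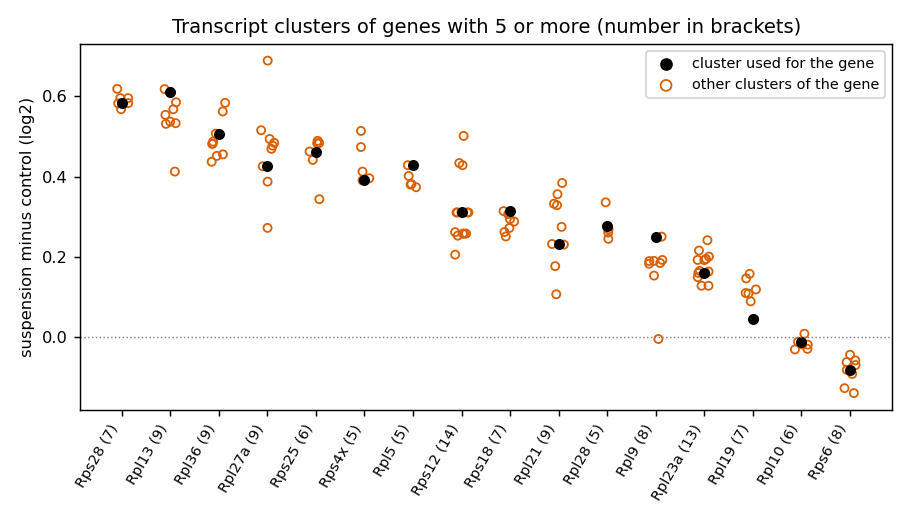
Differences between suspension and control (log2) of every single-symbol cluster, for the genes with at least 5 clusters; the filled point is the cluster used for the gene, the one with the highest mean signal. Clusters of Rps28 lie between 0.57 and 0.62 and those of Rps6 between -0.14 and -0.04.

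The comparison of suspension with electroacupuncture against suspension alone addressed what the treatment does in unloaded muscle. No member passed adjusted p under 0.05, beside 0% of all genes. The median difference was -0.01 log2 and that of all genes -0.01, with 28 of the 60 above 0 (46.7%, against 48.4% of all genes). The range was -0.47 to 0.18. Both electroacupuncture arrays lay above both suspension arrays for 13 genes (21.7%), against 15.4% of all genes, and below both for 15 (25%), against 17.1%. At an unadjusted p under 0.05 the count was 0 higher and 1 lower (1.67%), beside 1.56% and 1.5% of all genes (3.07% in either direction). Leaving out a suspension array turned the sign of the median or enlarged it, to 0.06 without array 1 and -0.063 without array 2.

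The gene with the smallest p was Rpl14, a large-subunit protein, with 5.52 and 5.55 with electroacupuncture, against 6.24 and 5.78 in suspension and 5.73 and 5.86 in control. Electroacupuncture minus suspension was -0.47 ± 0.17 (limma adjusted p = 1.00), and the suspension arrays differed from each other by as much. Rps15a had 5.98 and 6.00, against 6.41 and 6.34 in suspension, a difference of -0.38 ± 0.20. Rps19, whose human gene is mutated in Diamond-Blackfan anaemia, had 8.25 and 8.20, against 8.52 and 8.54 (-0.31 ± 0.18), with control at 8.76 and 8.18 on both sides of the other groups. Rpl12 had 4.49 and 4.58, against 4.94 and 4.72 (-0.29 ± 0.15), and Rps28 had -0.21 ± 0.15. Rpl10l, the testis copy, had 4.04 and 3.90, against 4.53 and 4.18 in suspension and 4.53 and 3.80 in control (-0.38 ± 0.24). In these genes the electroacupuncture arrays lay below both suspension arrays, and none passed. The highest were Rpl30 at 0.18 ± 0.17, Rpl29 at 0.17 ± 0.13 and Rpl32l at 0.17 ± 0.15. Rpl3l had -0.04 ± 0.12, Rps6 0.08 ± 0.13, and of the stalk genes Rplp0 had 0.03 ± 0.20 and Rplp1 -0.04 ± 0.15. Every member had an adjusted p of 1.00 in limma, which does not show that the groups were alike: the median SE over members was 0.16 log2.

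**Figure D5:**
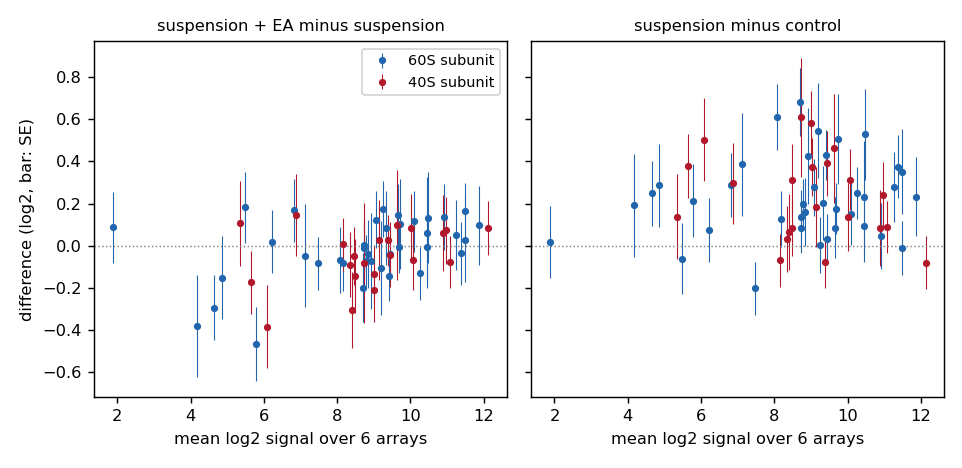
Differences (log2, bars: SE) of the 60 genes against their mean signal over 6 arrays, for suspension with electroacupuncture minus suspension (left) and suspension minus control (right), coloured by subunit. On the left the median is -0.01, and on the right 0.21 in both subunits.

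The comparison of suspension with electroacupuncture against control uses the same control arrays as the first comparison, so its values are not independent of it. No member passed in either direction, beside 1.03% of all genes (0.446% higher and 0.587% lower). The median difference was 0.19 log2, against 0.01 for all genes, with 51 of 60 above 0 (85%, against 51% of all genes). Both electroacupuncture arrays lay above both control arrays for 30 members (50%), against 21.8% of all genes, and below both for 3 (5%), against 20%. At an unadjusted p under 0.05, 9 members were higher (15%) and 1 lower (1.67%), beside 6.47% and 6.34% of all genes (12.8% in either direction). The smallest adjusted p was that of Rpl13, at 0.54 ± 0.16 (limma adjusted p = 0.172), followed by Rpl10a at 0.66 ± 0.22 (0.236), Rpl32l at 0.46 ± 0.15 (0.237), Rpl24 at 0.48 ± 0.16 (0.249) and Rpl4, which lines the exit tunnel, at 0.40 ± 0.14 (0.252). Rpl4 had 9.24 and 9.25 with electroacupuncture, 9.03 and 9.22 in suspension and 8.74 and 8.95 in control. The lowest differences were those of Rpl7l1 at -0.29 ± 0.13, Rpl14 at -0.25 ± 0.17 and Rps19 at -0.24 ± 0.18. Without control array 1 the median was 0.068 and no member passed, and without control array 2 it was 0.38 and 6 passed, 10% against 1.5% of all genes in that fit (Rpl10a, Rpl21, Rpl24, Rpl36, Rps25 and Rps29).

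The symbol rule leaves out 2 ribosomal protein genes that had a cluster of their own. Rpsa, a protein of the small subunit also known as a laminin receptor, had 8.82 and 8.72 with electroacupuncture, 9.06 and 8.74 in suspension and 8.02 and 8.79 in control. Fau, made as a fusion of a ubiquitin-like protein with a small-subunit protein, had 10.12 and 9.95, 10.03 and 9.85, and 9.18 and 9.86 in the same order. Their differences between suspension and control were 0.49 ± 0.23 and 0.42 ± 0.21 (limma adjusted p = 0.429 and 0.455). Both lay above the median of the 60 members, 0.21, and above their upper quartile, 0.37. In both genes control array 1 was the lowest of the 6 and control array 2 lay among the suspended arrays.

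Other genes of ribosome supply were read from lists written from general knowledge. Over all genes, 1.05% passed in suspension against control and 51.1% of differences were above 0. Of 18 measured mRNAs of the TOP class that encode no ribosomal protein, 0 passed, with a median of 0.22 and 15 differences above 0. They included the initiation factor Eif3e (0.80 ± 0.16, limma adjusted p = 0.0594), Eif4b (0.51 ± 0.12, 0.0998) and Naca, which guards new peptides at the exit tunnel (0.45 ± 0.20, 0.408). This list also lay low on control array 1, at -0.15 from its control mean, and at 0.29 and 0.20 in suspension. The 59 nucleolar genes of rRNA processing and assembly had a median of -0.02, with 0 passed and 28 above 0, among them Wdr43 (0.56 ± 0.13, 0.0998) and the methyltransferase Fbl (-0.41 ± 0.15, 0.276). The list mean was -0.03 on control array 1 and 0.03 on control array 2. The 2 lists also differ in signal: on control array 2 the 18 TOP genes had a summed signal of 17411 and the 59 nucleolar genes 5063. Among all genes with a mean signal above 9, 74.2% were lower in control array 1, against 48.1% of all genes. The part of signal level in this contrast was not tested.

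Of 15 genes of RNA polymerase I transcription 0 passed, with a median of 0.01. Znrd1, a polymerase subunit, had 6.05 and 5.94 in suspension, against 6.75 and 6.51 in control (-0.64 ± 0.14, limma adjusted p = 0.0856), and the promoter factor Taf1a had -0.43 ± 0.13. The 13 chaperones and escorts of ribosomal proteins had 0 passed and a median of 0.00. Pdcd2l had -0.45 ± 0.15, and Naca, which is also on the TOP list, 0.45 ± 0.20. Among 23 genes of mTORC1, MYC and TOP regulation 1 rose, beside 0.537% of all genes. It was the mTORC1 inhibitor Ddit4l (2.32 ± 0.18, limma adjusted p = 0.00307), and the median of the list was 0.09. None of 6 genes of the ribosomal protein to p53 checkpoint passed (median -0.03, 2 above 0, beside 51.1% of all genes). Mdm4 had 0.51 ± 0.15 and Mdm2 0.41 ± 0.16. None of 20 genes of ribosome rescue passed (median 0.08), with Gcn1 at 0.73 ± 0.16 (limma adjusted p = 0.0856) and Gtpbp1 at 0.41 ± 0.13.

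Electroacupuncture minus suspension gave 0 passed in each of these 7 lists, beside 0% of all genes. The medians were 0.01 for the TOP class, -0.05 for the nucleolar genes, 0.03 for polymerase I, -0.03 for chaperones, -0.08 for the mTORC1 list, -0.02 for the p53 checkpoint and -0.08 for ribosome rescue. Ddit4l had 9.24 and 9.72 with electroacupuncture, 10.12 and 10.06 in suspension and 7.91 and 7.63 in control, a difference of -0.61 ± 0.18 that did not pass (limma adjusted p = 1.00). Against control it was higher by 1.71 ± 0.18 with electroacupuncture (limma adjusted p = 0.00784), the only call in these lists in that comparison. Of all genes, 1.03% passed there.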

How the data were processed

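Total RNA of soleus was labelled with biotin and hybridized to Affymetrix 1.0 ST arrays. Per the submitters' processing notes and the labels, the authors made the deposited log2 signals by RMA in Affymetrix Expression Console; version and genome build are not given in the sources used here. The values of 35556 transcript clusters were used as deposited. Of these, 21789 had 1 gene symbol, 1621 several and 12146 none. Clusters with several or no symbols were left out, and the cluster with the highest mean was kept per symbol, which gave 19938 genes.

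A linear model over all 6 arrays (limma 3.58.1 in R 4.3.3, with a variance prior that follows the mean signal; residual degrees of freedom 3, prior 5.88) gave the differences and SE. P-values were adjusted by Benjamini-Hochberg over all genes, threshold 0.05. The number of arrays limits the precision. The procedure was tested on simulated data.

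The members, lists and tests were chosen with earlier results of these data known. Genes were named by a rule: the 12 smallest p per comparison, paralogs, stalk genes, the highest, lowest and most variable member, and per list those past the threshold or the 2 smallest p. Further members and the cluster examples fell outside it and were picked with their values known. Not every gene that the rule gave is described in each comparison. Left out were, among others, Gas5, Tsr2 and Taf1d in suspension with electroacupuncture minus control. Start sequences are RefSeq's.

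Alternatives were other variance priors, a signal filter, 3 renormalizations, the mean of a gene's clusters, the compared groups alone, a replicate block and each array left out. For a gene that was not called, a change of sign was counted as a reversal only where its difference exceeded its SE.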

Additional observations from a re-analysis of the deposited data

How the results depend on the processing

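The median difference of the ribosomal protein genes kept its sign in both comparisons with control under every alternative run. It was 0.21, with 0.069 to 0.36 when 1 array was left out. For suspension with electroacupuncture minus control it was 0.19, with 0.068 to 0.38, and for suspension with electroacupuncture minus suspension -0.01, with -0.063 (without suspension array 2) to 0.061 (without suspension array 1). The low ends of 0.069 and 0.068 came without control array 1. In that fit the medians over all genes were 0.031 and 0.026, so part of the kept sign was shared with all genes. The number of members called was 0 in the 3 comparisons, with 0 to 8, 0 to 6 and 0 to 0 (suspension minus control, suspension with electroacupuncture minus control, suspension with electroacupuncture minus suspension) when 1 array was left out, and 1 in suspension minus control at adjusted p under 0.10. Fits without an array had 2 residual degrees of freedom.

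Over all genes, suspension minus control had 209 calls, with 16 (without suspension array 1) to 301 (without control array 2) when 1 array was left out, 80 with no trend in the prior and 68 with the compared groups alone. Suspension with electroacupuncture minus control had 206 calls, with 2 (without electroacupuncture array 2) to 299 (without control array 2), 101 with no trend, 129 with the compared groups alone and 312 with quantile normalization again. Suspension with electroacupuncture minus suspension had 0 calls (612 genes at an unadjusted p under 0.05), with 0 to 3, 1 with a robust prior and 3 with the compared groups alone. With the replicate number as a block, suspension minus control had 102 calls and suspension with electroacupuncture minus control 127, with 0 members in each. The numbers give no known pairing: deviations of same-numbered arrays correlated at -0.16 (suspension and control), -0.02 (suspension with electroacupuncture and suspension) and 0.02 (suspension with electroacupuncture and control). With the numbers of suspension and control crossed, chosen after seeing the data, the first comparison had 378 calls and 0 members.

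Among genes named by rule whose difference exceeded its SE, leaving out 1 array reversed 5 differences against control, each without control array 1. Their ranges over the arrays left out were -0.047 to 0.82 for Rpl26 in suspension minus control, and -0.095 to 0.77 for Rpl26, -0.052 to 0.47 for Rps27l, -0.050 to 0.54 for Rps4l and -0.017 to 0.75 for Rpsa in suspension with electroacupuncture minus control. Vim, a TOP mRNA, ranged from -0.016 (without suspension array 2) to 0.74 in suspension with electroacupuncture minus suspension. Members outside the rule also turned without control array 1. Among them were Rps25 (0.46 to -0.02), Rpl21 (0.23 to -0.06) and Rpl23 (0.20 to -0.07) in suspension minus control. Of the 60 members, 54 were above 0 there with all arrays (beside 51.1% of all genes) and 36 without control array 1. With electroacupuncture against control the counts were 51 (beside 51% of all genes) and 39. Without control array 1 the share of all genes was not taken. With electroacupuncture against control Rpl41 went from 0.29 to -0.17. None of these was called with all arrays, and the cause was not tested.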

Other observations

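Clusters that carry a ribosomal protein symbol together with other symbols took no part in the comparisons. There were 239 of them, with a median of the mean signals of 9.82. Their median difference was 0.23 log2 between suspension and control, with 215 above 0, and 0.00 between suspension with electroacupuncture and suspension, with 120 above 0. The 212 clusters with 1 symbol had medians of 0.26 and -0.01 in the same comparisons, with 188 and 98 above 0. Some of these 212 held identical values, so the counts include copies. Values are given for the clusters as a set and no gene is named from them, and all rest on the same 6 arrays.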
